A study of Mus musculus with 6 samples.

Results

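The transcription factors that define endothelial cells were examined in tumor endothelial cells (TECs) with and without forced Notch signaling. The set holds 10 genes, Erg, Fli1, Ets1, Sox7, Sox17, Sox18, Klf2, Klf4, Gata2 and Tal1, taken by symbol from the 23473 RefSeq gene rows of the deposited table. All 10 were in the table and all 10 passed the filter on low values, a mean of at least 1 RPKM over the libraries. RPKM scales the reads of a gene to the length of its model and to the library total, so levels of different genes can be set side by side per length.

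The libraries are bulk RNA-seq of cells that were pulled from Lewis lung carcinoma (LLC) tumors, a transplanted mouse lung cancer line grown under the skin of C57BL/6 mice aged 8 weeks. The 3 NICeCA libraries came from mice that carry Cdh5-CreERT, a tamoxifen-inducible Cre driven by the promoter of the endothelial cadherin gene Cdh5, together with a Rosa26 allele that gives the intracellular domain of Notch1 (NIC) once Cre has removed a stop cassette. The 3 Ctrl libraries came from mice that the labels call wild type, and the sources used here do not say whether these also received tamoxifen. Cells were captured with magnetic beads against CD31, which platelets and some leukocytes carry too, and the labels give a purity of over 90%. In the RNA, 10 macrophage genes summed to 4309 to 9337 RPKM per library, beside 488 to 1297 RPKM for 24 endothelial genes. Levels given here are therefore those of the captured fraction and not of endothelial cells alone. Each library is treated as 1 mouse, as the methods describe. The p-values set the group difference against the spread between libraries of a group, a spread that is partly pooled over genes.

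Endothelial identity is held in place by a small group of factors that act together on shared enhancers. ERG, FLI1 and ETS1 belong to the ETS family and keep genes of junctions and vessel stability active. SOX7, SOX17 and SOX18 form the SOXF group, which takes part in arterial and lymphatic specification and is tied to Notch. KLF2 and KLF4 are zinc finger factors that laminar blood flow induces through a kinase cascade ending in ERK5 and MEF2, and they favour a quiescent, anticoagulant vessel wall. GATA2 and TAL1 (SCL) are shared by endothelium and blood progenitors, where they work in one complex with LMO2 and LDB1.

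Of the 10 factors, only Klf2 passed the test. It fell from 102 ± 24.6 RPKM in Ctrl libraries to 58.0 ± 6.59 RPKM in NICeCA libraries (mean ± SD, n = 3 each), while 0 of 10 rose. In direction, Klf2, Klf4 and Gata2 had negative fold changes and the 7 others positive ones, with a median log2 fold change of 0.27 over the 10, beside -0.05 over all 12320 genes tested. By limma on log2(RPKM + 1) with an adjusted p under 0.05, 1 of 10 was called lower, where 7.68% of all genes were called lower and 5.88% higher. That split depended on scaling, since 43.4% of all calls were higher on the RPKM scale as deposited, 33.8% with limma voom on recovered reads, 57.2% with trimmed mean scaling, 57.8% with quantile normalization and 74.1% with the length trend removed. At an unadjusted p under 0.05 the numbers were 2 lower and 1 higher (Sox17), beside 2602 lower and 1775 higher of all 12320 genes. Voom called 1 lower and 0 higher, beside 1337 lower and 683 higher over all genes. A share of 1 in 10 is near the background, so the count by itself says nothing particular about the set.

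**Figure D1:**
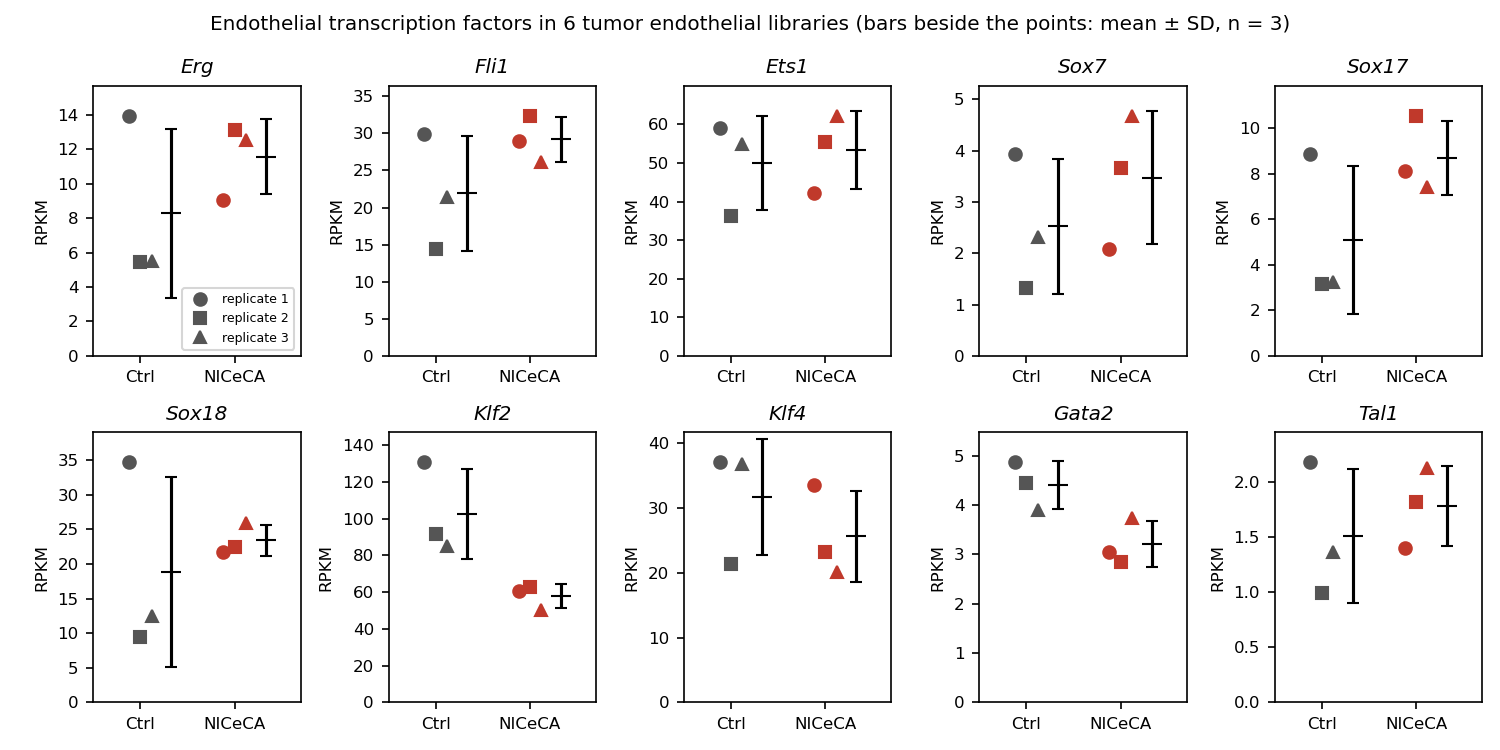
RPKM of the 10 endothelial transcription factors (vertical axes, each starting at 0) in the 3 Ctrl (grey) and 3 NICeCA (red) libraries; symbols mark the replicate number and bars the mean ± SD. Klf2 and Gata2 have all NICeCA points below all Ctrl points, and Ctrl replicate 1 stands far above the other two Ctrl libraries for Erg, Sox17 and Sox18.

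By mean level over the 6 libraries, the order was Klf2 (80.2 RPKM), Ets1 (51.7), Klf4 (28.7), Fli1 (25.6), Sox18 (21.1), Erg (9.92), Sox17 (6.88), Gata2 (3.81), Sox7 (3.003) and Tal1 (1.65). Each gene overlapped with the next one down in its range over all libraries. Within libraries, Ets1 lay above Klf4, Sox18 above Erg, Erg above Sox17 and Sox7 above Tal1 in 6 of 6, while the 5 other pairs of neighbours kept their order in 4 or 5 of 6. Erg kept rank 6 and Tal1 rank 10 in every library, while the top rank was shared between Klf2 and Ets1. Depth does not limit these values much, since the least covered member, Tal1, still rested on 165 to 354 reads per library and Klf2 on 3413 to 9261.

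The level of endothelial marker genes differed between libraries and has to be read beside every member. A list of 24 endothelial genes that are not transcription factors (Pecam1, Cdh5, Tie1, Cldn5 and others) had a mean log2(RPKM + 1) of 5.08, 3.88 and 4.24 in Ctrl replicates 1, 2 and 3 and of 4.83, 5.28 and 5.17 in NICeCA replicates 1, 2 and 3. Ctrl replicate 1 thus lay among the NICeCA libraries, and the other two Ctrl libraries lay below all of them. Each of the 24 had a higher mean log2 level in NICeCA libraries, by a median of 0.66, and 2 of them, Cd93 and Vwf, were called. In bulk samples, fewer endothelial cells and less RNA of a gene per endothelial cell cannot be told apart. For this reason each member was also compared after subtracting the marker mean of the same library. In that fit limma gave the members nearly the same SE (0.477 to 0.485), so its p-values do not reflect each gene's own spread. The subtraction moves the median of all genes to -0.74, and values on this relative scale are given beside it. The p-values of that fit test each difference against 0, where a gene moves as the marker mean does.

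**Figure D2:**
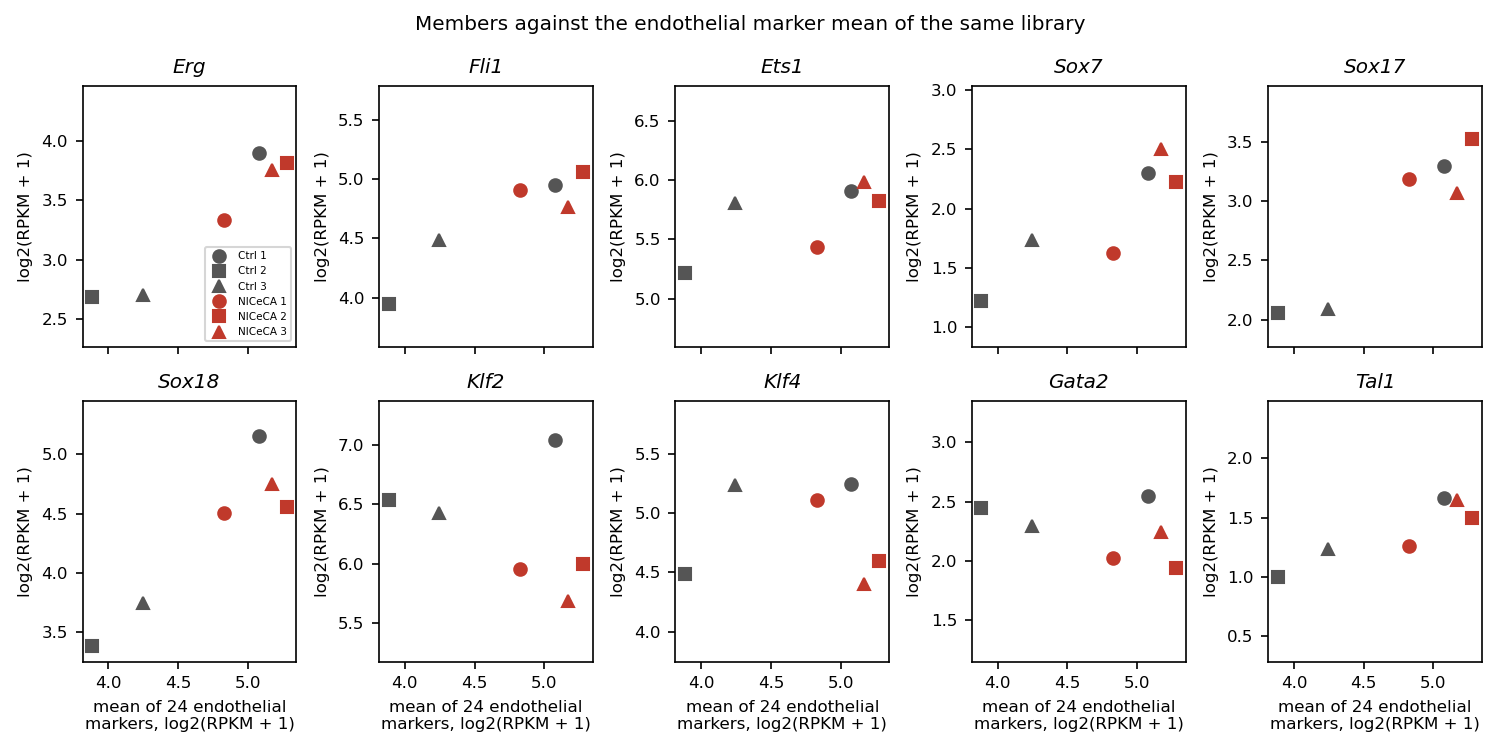
Each member (vertical axes, log2(RPKM + 1), all spanning the same range) against the mean of 24 endothelial markers in the same library (horizontal axis, log2(RPKM + 1)); grey is Ctrl, red is NICeCA. Erg, Sox17 and Sox18 are low in the 2 libraries with the lowest marker mean, both Ctrl. For Klf2 all Ctrl points lie above all NICeCA points, but only Ctrl replicate 1 lies within the NICeCA range of the marker mean.

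The ETS factors had the direction of the endothelial markers, and none passed the test. Erg (chromosome 16, 95360204 to 95530365, minus strand, GRCm38), which maintains the endothelial lineage and its junctions, had 13.9, 5.43 and 5.49 RPKM in Ctrl replicates 1 to 3 and 9.07, 13.1 and 12.5 RPKM in the NICeCA replicates. Ctrl replicate 1 held the highest value of all and the other two Ctrl libraries the lowest, so the groups overlapped. The log2 fold change of Erg was 0.54 (SE 0.32, limma adjusted p = 0.26). Without Ctrl replicate 1 it was 0.94 and Erg was called higher (limma adjusted p = 0.038). That library had the highest endothelial marker mean in Ctrl (5.08), so leaving it out also widened the marker difference between the groups.

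Fli1 (chromosome 9, 32422208 to 32541368, minus strand), the closest relative of Erg and also a factor of megakaryocytes, had 29.9, 14.4 and 21.4 RPKM in Ctrl and 29.0, 32.3 and 26.2 RPKM in NICeCA libraries. Here too Ctrl replicate 1 reached the NICeCA range, and the log2 fold change was 0.45 (SE 0.24, limma adjusted p = 0.22). Ets1 (chromosome 9, 32696042 to 32757820, plus strand), which is also abundant in lymphocytes, had 59.1, 36.2 and 54.9 RPKM in Ctrl and 42.3, 55.5 and 62.2 RPKM in NICeCA libraries. The groups of Ets1 were interleaved, and its log2 fold change of 0.10 (SE 0.22, limma adjusted p = 0.77) turned negative without Ctrl replicate 2, without NICeCA replicate 3 and with quantile normalization. Erg amounted to 0.466, 0.377 and 0.256 of Fli1 in Ctrl and to 0.312, 0.405 and 0.478 of it in NICeCA libraries, with no order between the groups.

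Fli1 and Ets1 are neighbours on chromosome 9, and FANTOM3 transcript models lie inside their introns. Of 7 such models that overlap a member, 5 lie in Fli1 introns, 1 in an Ets1 intron and 1 covers Gata2 exons. All 6 intronic models had their highest value in Ctrl replicate 3, where the Fli1 models reached 7.90% to 20.03% of the RPKM of the Fli1 row, against 2.26% to 10.7% in the 5 other libraries. None of the 7 separated the groups. No member shares exons with another annotated gene in the reference annotation.

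The table holds 23 other ETS family genes, of which 17 were tested, and 0 of them were called (limma). Their median was -0.09, with 5 positive and 12 negative fold changes, against a median of -0.05 over all genes. At an unadjusted p under 0.05, 1 was higher and 3 were lower, and voom called 1 lower. The 2 with the lowest p were Elk4, a partner of serum response factor, at 20.7 ± 1.55 and 14.2 ± 2.35 RPKM (log2 fold change -0.53, limma adjusted p = 0.051), and Etv1 at 6.18 ± 1.42 and 4.23 ± 0.57 RPKM (-0.44, limma adjusted p = 0.11). Target genes of ERG and FLI1 went with the endothelial markers, since 17 of 18 had positive fold changes with a median of 0.66. Of these 18, 2 rose by limma: Vwf, the platelet-binding factor of blood clotting, from 10.9 ± 4.01 to 24.5 ± 3.29 RPKM (log2 fold change 1.15, adjusted p = 0.036), and Flt1, a VEGF receptor, from 7.66 ± 3.46 to 15.8 ± 1.53 RPKM (1.03, adjusted p = 0.044). Of the 18 targets, 13 are also among the 24 endothelial markers. Both calls were lost when any 1 NICeCA library was left out, and that of Flt1 also without Ctrl replicate 2 or 3. Most calls over all genes were lost without NICeCA replicate 1 or 2 (counts in the last section). Losses in those fits, here and below, are thus not particular to the gene named.

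The 3 SOXF factors also had positive fold changes, and none passed the test. Sox17 (chromosome 1, 4490928 to 4496413, minus strand), an arterial factor, had 8.85, 3.16 and 3.25 RPKM in Ctrl and 8.10, 10.5 and 7.41 RPKM in NICeCA libraries. Its log2 fold change of 0.78 was the largest positive one among the 10 factors (SE 0.32, limma adjusted p = 0.13), and only Ctrl replicate 1 kept the groups from separating. Sox18 (chromosome 2, 181669837 to 181671640, minus strand), which acts in vessel and lymphatic development, had 34.7, 9.46 and 12.4 RPKM in Ctrl and 21.7, 22.5 and 26.0 RPKM in NICeCA libraries. The highest and the 2 lowest values of Sox18 were all in Ctrl, and the log2 fold change was 0.51 (SE 0.40, limma adjusted p = 0.39). Without Ctrl replicate 1, Sox17 and Sox18 had log2 fold changes of 1.19 and 1.04 and both were called higher (limma adjusted p = 0.025 and 0.028). As for Erg, leaving out this library also widened the difference of the endothelial markers between the groups. Its part in these calls was not tested.

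Sox7 (chromosome 14, 63943706 to 63950732, plus strand), the third SOXF gene, had 3.93, 1.33 and 2.32 RPKM in Ctrl and 2.09, 3.67 and 4.68 RPKM in NICeCA libraries. The groups overlapped at both ends, and the log2 fold change was 0.37 (SE 0.31, limma adjusted p = 0.42). Relative to the endothelial markers, the 3 SOXF genes, Erg and Fli1 lay nearest to the markers. The difference was 0.09 for Sox17, -0.15 for Erg, -0.18 for Sox18, -0.24 for Fli1 and -0.32 for Sox7. Limma adjusted p ran from 0.58 to 0.88, each with an SE of 0.48 that the members nearly share. Their own SDs on this scale were 0.13 to 0.33 in Ctrl and 0.041 to 0.28 in NICeCA libraries. For Sox17 the sign of the difference flipped with the median of the markers, without Ctrl replicate 3 and without NICeCA replicate 1. For Sox18 it flipped without Ctrl replicate 1.

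Sox18 is also a gene of lymphatic endothelium. Of 7 lymphatic markers, 3 passed the filter, 1 was called higher (Pdpn, which fibroblasts and macrophages also express), and the summed level was 34.7 to 71.7 RPKM in Ctrl and 134 to 166 RPKM in NICeCA libraries. Most of that sum was Pdpn, at 27.2 to 51.3 and 112 to 143 RPKM, and the rest was mainly Lyve1, at 3.65 to 18.2 and 13.2 to 17.1 RPKM. The part of these cells in the Sox18 values was not tested. The defining lymphatic factor Prox1 was at 0.0121 to 0.267 RPKM and Ccl21a at 0 in all 6 libraries. Of 14 other SOX genes 2 were tested and 0 called: Sox4 at 7.78 ± 1.20 and 8.37 ± 1.72 RPKM and Sox13 at 2.16 ± 1.08 and 2.90 ± 0.33 RPKM, with 0 at an unadjusted p under 0.05 and 0 by voom. SOXF target genes, 5 of which are among the endothelial markers, had positive fold changes in 14 of 15 cases with a median of 0.52, and 2 rose by limma. These were Flt1, given above, and Gja5, the arterial gap junction gene of connexin 40, which went from 8.97, 5.96 and 8.32 RPKM in Ctrl to 17.4, 29.4 and 31.1 RPKM in NICeCA libraries. The log2 fold change of Gja5 was 1.60 (SE 0.24, limma adjusted p = 0.015), and its call was lost without NICeCA replicate 2.

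Klf2 (chromosome 8, 72319062 to 72321654, plus strand) is the flow-induced factor of the set and the most abundant one on average. It had 131, 91.7 and 85.2 RPKM in Ctrl replicates 1, 2 and 3 and 60.8, 62.7 and 50.5 RPKM in NICeCA replicates 1, 2 and 3. Every NICeCA library lay below every Ctrl library, as was so for 24.4% of all genes tested. The log2 fold change was -0.79 (SE 0.19, limma adjusted p = 0.038). It stayed negative in all 16 alternatives, between -1.09 and -0.61, but was called in 6 of them, with adjusted p from 0.030 to 0.13. The call was lost without Ctrl replicate 1 (0.053), Ctrl replicate 2 (0.068), NICeCA replicate 1 (0.12), NICeCA replicate 2 (0.13) or NICeCA replicate 3 (0.068), and held without Ctrl replicate 3 (0.032).

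Relative to the endothelial markers, Klf2 was also the member with the most negative difference. It lay 1.96, 2.65 and 2.18 log2 units above the marker mean in Ctrl libraries (SD 0.35). In NICeCA libraries it lay 1.12, 0.71 and 0.52 log2 units above that mean (SD 0.31), again without overlap. The difference was -1.48 (SE 0.48, limma adjusted p = 0.0503), against -0.74 for the median gene. It was just outside the threshold and stayed so in 8 of 13 alternatives, with adjusted p up to 0.58. It was called with a pseudocount of 0.1 (0.042), in limma without the trend (0.022), with the median of the markers (0.046), with markers that are not targets of these factors (adjusted p = 0.035) and without Ctrl replicate 1 (adjusted p = 7.7e-06), in a fit where the median of all genes stood at -1.10 and 10350 genes were called.

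Klf4 (chromosome 4, 55527137 to 55532475, minus strand), the partner of Klf2 in the flow response and also a factor of monocytes, had 37.0, 21.4 and 36.8 RPKM in Ctrl and 33.5, 23.2 and 20.1 RPKM in NICeCA libraries. Ctrl replicate 2 and NICeCA replicate 1 crossed over, and the log2 fold change was -0.29 (SE 0.26, limma adjusted p = 0.45). Relative to the markers it was -0.98 (SE 0.48, limma adjusted p = 0.15). The ratio of Klf2 to Klf4 went from 3.38 ± 0.99 to 2.34 ± 0.47 (SD, n = 3), which an exact permutation test did not separate (two-sided p = 0.3, adjusted 0.5). The ratio of Klf2 to Sox18 was 3.77, 9.69 and 6.86 in Ctrl and 2.80, 2.79 and 1.94 in NICeCA libraries, without overlap and with the smallest p that 20 assignments of the libraries allow (exact two-sided p = 0.1, adjusted 0.5 over 5 ratios compared).

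The promoters of both KLF genes and of Gata2 are shown because these are the 3 members with negative fold changes. The stretches run from 250 bases before to 50 after the start site at which the deposited row begins, from RefSeq on GRCm38.p6, 5′ to 3′ on the strand of the gene. Capitals mark a match to the MEF2 motif.
Klf2 promoter, chr8:72318812-72319111, plus strand: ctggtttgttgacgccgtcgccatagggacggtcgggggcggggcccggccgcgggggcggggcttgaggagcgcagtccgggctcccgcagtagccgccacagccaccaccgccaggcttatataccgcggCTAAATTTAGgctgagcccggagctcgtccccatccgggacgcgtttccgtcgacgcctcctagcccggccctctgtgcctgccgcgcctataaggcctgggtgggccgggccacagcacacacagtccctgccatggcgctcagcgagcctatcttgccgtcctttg
Klf4 promoter, chr4:55532426-55532725, minus strand: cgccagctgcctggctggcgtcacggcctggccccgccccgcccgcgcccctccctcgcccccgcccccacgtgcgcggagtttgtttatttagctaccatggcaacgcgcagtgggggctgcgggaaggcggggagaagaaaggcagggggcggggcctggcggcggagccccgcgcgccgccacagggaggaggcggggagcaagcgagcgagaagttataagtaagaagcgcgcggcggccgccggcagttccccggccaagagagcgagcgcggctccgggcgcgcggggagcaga
Gata2 promoter, chr6:88198414-88198713, plus strand: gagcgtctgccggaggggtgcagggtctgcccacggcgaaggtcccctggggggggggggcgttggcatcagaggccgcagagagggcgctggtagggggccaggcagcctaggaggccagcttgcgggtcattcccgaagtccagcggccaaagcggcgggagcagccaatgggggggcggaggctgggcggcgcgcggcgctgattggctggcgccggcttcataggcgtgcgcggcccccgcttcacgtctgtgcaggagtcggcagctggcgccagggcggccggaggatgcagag
The Klf2 stretch holds a MEF2 match, CTAAATTTAG, which starts 118 bases before the start site. This motif was found in 3.19% of 32841 RefSeq promoters of this length on either strand, and in neither the Klf4 nor the Gata2 stretch. The promoters counted leave out a chromosome that holds no member. The promoter of Erg at its row start (chr16:95530316-95530615, minus strand) holds another MEF2 match, TTAAATTTAA, 16 bases before the start. GC content was 69.3% for Klf2, 74.3% for Klf4, 73.7% for Gata2 and 37.3% for Erg. None of these 4 stretches holds TGGGAA, the core bound by RBPJ, the DNA-binding partner of NIC, which occurs in 25.6% of the 32841 promoters on either strand. Away from the row start, a promoter of Erg (chr16:95459299-95459598) and a promoter of Tal1 (chr4:115056176-115056475) do hold it. The other such promoters, of Erg, Gata2 and Tal1, do not. The ETS core searched, CCGGAA, is in none of the 4 stretches and in 14.9% of the 32841 promoters. The SOX letters ACAAT, present in 31.0% of the 32841 promoters, were not found there. The GATA letters AGATAA, present in 11.2% of the 32841 promoters, were not found there either. A match is a description of these letters and does not show binding.

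The list of genes upstream of KLF2 and KLF4 mixes parts that drive the cascade with parts that restrain it. Its signs are therefore given gene by gene and not read as a shared direction. Of 14 tested, 6 had positive and 8 negative fold changes (median -0.05, as for all genes), with 1 called higher and 1 lower by limma. Piezo1, a channel that senses shear stress, fell from 28.0 ± 2.13 to 19.97 ± 1.58 RPKM (log2 fold change -0.47, adjusted p = 0.045). Pdcd10, a component of the CCM complex that restrains the cascade above KLF2 and KLF4, rose from 12.6 ± 1.93 to 20.3 ± 3.03 RPKM (0.64, adjusted p = 0.041). With the length trend removed, Piezo1 was at -0.17 and not called (adjusted p = 0.32). The call of Piezo1 was also lost when any 1 library was left out, and that of Pdcd10 without Ctrl replicate 1 or 2 or NICeCA replicate 1 or 2. The kinases Map2k5 (MEK5) and Mapk7 (ERK5), named here after their values were seen, stood at 8.33 ± 1.15 and 5.82 ± 0.94 RPKM and at 11.03 ± 2.26 and 10.2 ± 1.22 RPKM, with limma adjusted p of 0.079 and 0.71.

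Genes known to be induced by KLF2 and KLF4 did not fall with Klf2. All 7 tested genes of that list had positive fold changes (median 0.59) and 2 rose by limma. Thbd, which encodes the anticoagulant thrombomodulin, had 22.9, 14.8 and 29.5 RPKM in Ctrl and 73.1, 68.5 and 88.5 RPKM in NICeCA libraries (log2 fold change 1.77, SE 0.24, adjusted p = 0.011). Gja4, the gap junction gene of connexin 37, rose from 5.86 ± 1.27 to 15.6 ± 4.18 RPKM (1.26, SE 0.22, adjusted p = 0.021). Neither call held without NICeCA replicate 2, and that of Thbd was lost without NICeCA replicate 1 too, as were most calls over all genes in those fits.

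Genes known to be repressed by these factors had positive fold changes in 6 of 7 cases (median 0.69), and 2 rose by limma. Ccl2, a monocyte chemokine that many cell types make, had 58.1, 130 and 153 RPKM in Ctrl and 329, 398 and 465 RPKM in NICeCA libraries (log2 fold change 1.89, adjusted p = 0.022). Angpt2, a destabilizing ligand of the Tie2 receptor, rose from 15.7 ± 5.43 to 36.1 ± 4.89 RPKM (1.20, adjusted p = 0.032). Both calls were lost without NICeCA replicate 1 or 2, and that of Angpt2 also without NICeCA replicate 3. Relative to the endothelial markers, 0 genes of either list were called, and the medians were -0.10 and -0.003 beside -0.74 for all genes. At an unadjusted p under 0.05, 1 of each list was higher in that fit, beside 98 of all 12320 genes.

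Of 15 other KLF genes 9 were tested, with 5 positive and 4 negative fold changes and a median of 0.04. Klf6, a broadly expressed injury-response factor, rose from 103, 70.8 and 104 RPKM to 135, 155 and 145 RPKM (log2 fold change 0.66, limma adjusted p = 0.046), in the direction opposite to Klf2 and Klf4. The call of Klf6 held in 6 of 16 alternatives and, among fits without 1 library, only without Ctrl replicate 3. With quantile normalization, Klf6 was at 0.31 and not called (adjusted p = 0.23).

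**Figure D3:**
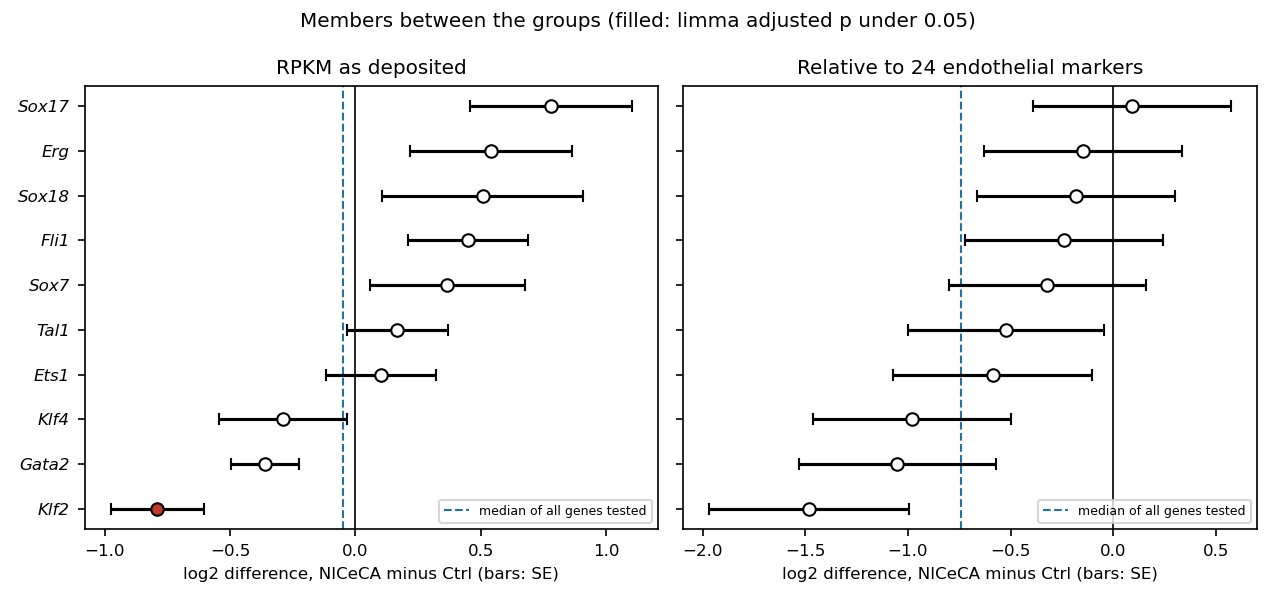
Log2 difference of each member, NICeCA minus Ctrl, with its standard error, on the RPKM scale as deposited (left) and after subtracting the mean of 24 endothelial markers (right). The dashed line is the median of all 12320 genes tested, at -0.05 and -0.74; Klf2 alone is filled (limma adjusted p under 0.05) and only on the left.

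Other cell types in the CD31 fraction also express Klf2 and Klf4. The summed level of 12 T and NK cell markers, cells in which Klf2 is high, was 61.1 to 98.7 RPKM in Ctrl and 69.0 to 87.5 RPKM in NICeCA libraries, and 0 of 12 were called by limma or voom (1 lower at an unadjusted p under 0.05). Of 10 macrophage markers 2 were called higher, with sums of 6386 to 9337 RPKM in Ctrl and 4309 to 8057 RPKM in NICeCA libraries. Of 7 fibroblast markers tested, 4 were called lower in NICeCA libraries and 2 had positive fold changes. The list summed to 391 to 658 against 181 to 354 RPKM, most of it Col3a1 (270 to 454 against 103 to 226 RPKM). Neutrophil markers were higher (6 of 7 called, 119 to 273 against 632 to 1709 RPKM, with Mpo and Elane under 1 RPKM in all libraries). Pericyte markers summed to 32.7 to 53.5 against 75.3 to 141 RPKM (3 of 8 called higher). Immediate early genes, which respond within minutes to handling of cells as Klf2 and Klf4 also can, summed to 2099 to 2995 RPKM in Ctrl and 3890 to 4367 RPKM in NICeCA libraries, with 4 of 14 called higher and 1 lower. The part of these differences in the Klf2 and Klf4 values was not tested.

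Gata2 (chromosome 6, 88198664 to 88207032, plus strand), a factor of endothelium, mast cells and blood progenitors, had 4.86, 4.44 and 3.91 RPKM in Ctrl and 3.06, 2.84 and 3.74 RPKM in NICeCA libraries. All NICeCA libraries lay below all Ctrl libraries, the second member of which this held, and the gap between the groups was that of Ctrl replicate 3 and NICeCA replicate 3. The log2 fold change was -0.36 (SE 0.14, limma adjusted p = 0.10), and Gata2 was called in none of 15 alternatives (lowest adjusted p = 0.081, with voom). Relative to the markers the difference was -1.05 (SE 0.48, limma adjusted p = 0.13). Of the 10 factors, 2 separated the groups downward and 0 upward, against 24.4% and 16.5% of all genes.

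Tal1 (chromosome 4, 115059527 to 115071755, plus strand), the other factor shared with blood, had 2.18, 0.996 and 1.36 RPKM in Ctrl and 1.40, 1.82 and 2.13 RPKM in NICeCA libraries. The groups overlapped throughout, and the log2 fold change was 0.17 (SE 0.20, limma adjusted p = 0.58). Relative to the markers, Tal1 (-0.52) and Ets1 (-0.59) joined Klf2 and Gata2 among the 4 members with all NICeCA libraries below all Ctrl libraries, as was so for 25.6% of all genes on that scale, where 0.909% had all NICeCA libraries above. In this relative fit 0 of 10 members were called, where 4.12% of all genes were called lower and 0.3% higher. At an unadjusted p under 0.05, 3 of the 10 were lower, beside 3702 of all 12320 genes. Without Ctrl replicate 1, 5 members were called lower (Ets1, Klf2, Klf4, Gata2 and Tal1), in the fit where 10350 genes were called.

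Mast cells and basophils also express Gata2 and Tal1. The sum of 11 of their markers was 181, 34.8 and 54.8 RPKM in Ctrl and 108, 97.7 and 114 RPKM in NICeCA libraries, and 0 of 9 tested were called (1 higher at an unadjusted p under 0.05, 0 by voom). Platelet and megakaryocyte markers summed to 123 to 213 RPKM in Ctrl and 1196 to 1327 RPKM in NICeCA libraries, nearly all of it the chemokines Pf4 and Ppbp, which were the 2 of 5 tested that were called. Of the others, Itgb3, which endothelial cells also express, had 5.77 to 12.9 RPKM in Ctrl and 16.9 to 17.7 RPKM in NICeCA libraries (limma adjusted p = 0.089). The platelet integrin gene Itga2b had 0.957 to 2.03 and 1.42 to 2.58 RPKM, Gp9 had 0.588 to 0.759 and 0.524 to 2.25 RPKM, and Gp6, the collagen receptor of platelets, was under 0.1 RPKM in all libraries. Erythroid markers summed to 16.4 to 28.8 against 6.46 to 24.8 RPKM (0 of 4 called by limma or voom, 0 at an unadjusted p under 0.05). Their part in the Gata2 and Tal1 values was not tested.

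Of 17 genes of the GATA and TAL1 complexes 11 were tested, with 2 positive and 9 negative fold changes and a median of -0.34, against -0.05 over all genes, and 1 was called in each direction by limma. Lmo2, the bridge protein of the complex, rose from 18.8, 16.7 and 18.3 RPKM to 30.0, 29.6 and 25.8 RPKM (log2 fold change 0.63, SE 0.12, limma adjusted p = 0.025). Tcf3, the E protein that pairs with TAL1, fell from 21.0 ± 4.12 to 13.3 ± 1.18 RPKM (-0.61, SE 0.16, limma adjusted p = 0.043). Ldb1, which binds LMO2, stood at 29.0 ± 5.89 and 20.4 ± 0.99 RPKM (limma adjusted p = 0.087), and Lyl1, the close relative of Tal1, at 18.7 ± 3.32 and 12.6 ± 3.48 RPKM (0.098). The call of Lmo2 was lost without Ctrl replicate 2, NICeCA replicate 1 or NICeCA replicate 2, and that of Tcf3 on leaving out each of them except Ctrl replicate 3.

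The table holds 31 other vascular transcription factors, of which 26 were tested, with 10 positive and 16 negative fold changes and a median of -0.20. Over all genes, 5509 were positive and 6811 negative. Of the 26, 1 was called higher and 3 lower by limma. Smad6, an inhibitor of BMP signaling, rose from 1.47 ± 0.38 to 3.82 ± 0.27 RPKM (log2 fold change 0.97, adjusted p = 0.016). Nr2f1, an orphan nuclear receptor that fibroblasts also express, fell from 4.58 ± 1.35 to 1.43 ± 0.48 RPKM (-1.19, adjusted p = 0.022). Foxm1, which drives mitosis genes, fell from 8.72 ± 3.50 to 3.58 ± 1.14 RPKM (-1.06, adjusted p = 0.042), and Tbx1 fell from 1.90 ± 0.89 to 0.54 ± 0.27 RPKM (-0.89, adjusted p = 0.048). Relative to the endothelial markers, 4 of these 26 and 0 of the 10 factors were called lower, where 4.12% of all genes were. Klf2 was just outside the threshold in that fit (limma adjusted p = 0.0503). The calls of Smad6 and Nr2f1 were lost without NICeCA replicate 1 or 2, that of Foxm1 also without Ctrl replicate 1 or 2, and that of Tbx1 when any 1 library was left out.

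**Figure D4:**
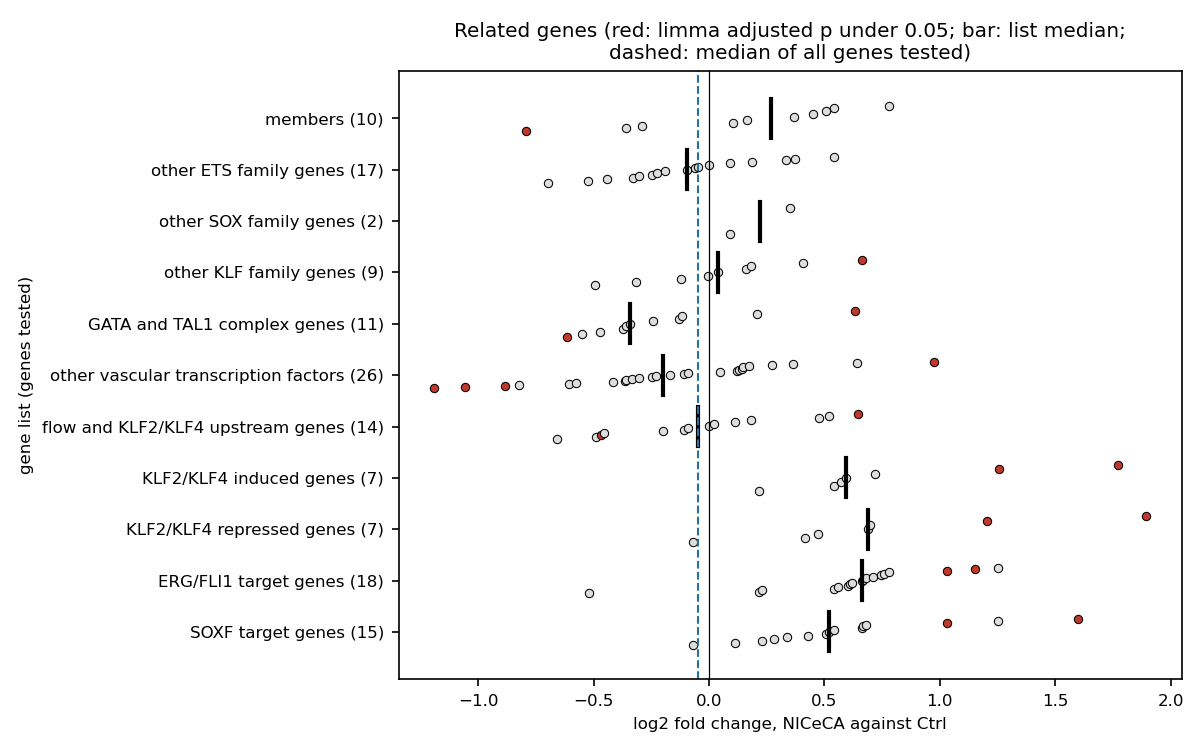
Log2 fold change, NICeCA against Ctrl (horizontal axis), of each tested gene in the 10 factors and 10 lists of related genes (rows, with the number tested); red points have a limma adjusted p under 0.05, black bars are list medians and the dashed line is the median of all genes (-0.05). Target lists lie to the right with medians of 0.52 to 0.69, while lists of other transcription factors lie between -0.34 and 0.22.

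The library profile of each factor was set beside those of 125 other tested genes of the lists, by the root mean square difference of centred log2(RPKM + 1) over the 6 libraries. Erg was most like Egfl7 (0.0565), a vessel-secreted protein, and Esam (0.0964), a junction protein. Fli1 was most like Fzd4 (0.112) and Epas1 (0.153), Ets1 like Lef1 (0.116) and Heg1 (0.118), and Tal1 like the endothelial receptor Eng (0.0632) and Ets1 (0.128). The SOXF genes likewise had endothelial genes nearest to them, with Bcl6b (0.147) and Robo4 (0.169) for Sox7, Tie1 (0.124) and Esam (0.141) for Sox17, and Rasip1 (0.145) and Esam (0.175) for Sox18. Klf4 was nearest to Klf13 (0.125) and Vcam1 (0.134), and Gata2 to Zeb1 (0.124) and Ldb1 (0.13). Among these 125, Klf2 had no close partner, since its nearest genes, Lyl1 (0.227) and Ldb1 (0.246), were farther away than the nearest gene of any other member. The 125 come from lists of related transcription factors, flow genes and target genes, without the marker lists of other cell types. Many of them are endothelial, so an endothelial nearest gene was likely from the start. These distances are a description over 6 libraries that differ in the level of the endothelial markers.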

How the data were processed

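TECs of 3 Ctrl and 3 NICeCA mice were profiled by RNA-seq after removal of ribosomal RNA. The authors deposited 1 RPKM value per library for 56826 rows (23473 RefSeq genes and 33353 FANTOM3 models), without pooling. The submitters' processing notes name TopHat2 and mm9, yet the positions are those of GRCm38; no counting tool or strand setting is named in these sources. The methods give day 14 for collection, while the labels say that days differed. They name OmicShare, which was not run.

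RPKM times row length was a whole multiple of a step for 100% of values under 1000 reads (tolerance 0.05), which gave 27793301 to 30769916 reads on RefSeq rows per library. The ribosomal row Rn45s took 0.825% to 6.4% of them. No 2 libraries of a group were copies (chi-square per degree of freedom of at least 51.2).

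Groups were compared on log2(RPKM + 1) by limma 3.58.1 in R 4.3.3 (trend, two-sided, Benjamini-Hochberg over 12320 RefSeq rows with a mean of at least 1 RPKM, adjusted p under 0.05). Fold changes on this scale understate the change of genes with low values. A second fit subtracted the mean of 24 endothelial markers per library. Its standard errors are dominated by the spread of that mean and are nearly the same for all members. On simulated reads (12341 genes), 79.6% of 98 genes changed by 2-fold and 100% of 95 changed by 4-fold were called, with 15 unchanged genes called. These shares hold for the simulated spread and were not worked out for the members, whose SE reached 0.40 (Sox18).

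The members, gene lists and markers were chosen with earlier results of these data known, and the lists were written from general knowledge. Named were all 10 members, the genes of each list past the threshold (at most 3 each way, otherwise the 2 with the lowest p), the 2 genes most alike to each member, and FANTOM3 models overlapping a member; the genes named after their values were seen are Map2k5, Mapk7 and the cell type markers singled out. The 5 ratios of members were compared by exact permutation (20 assignments, smallest two-sided p 0.1). Promoters came from RefSeq (GRCm38.p6) and were found for 5 of 10 members, for 4 at the start of the deposited row. Alternatives were the replicate block, leaving out each library, trimmed mean scaling, quantile normalization, other filters, a pseudocount of 0.1, no trend, voom on the recovered reads (2020 genes called, against 1671), removal of the length trend (lowess, span 0.3), and other uses of the markers.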

Additional observations from a re-analysis of the deposited data

How the results depend on the processing

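The number of members called lower went from 1 to 0 with the replicate block, trimmed mean scaling, no filter, the length trend removed and the endothelial marker mean as a covariate, and was 0 to 1 with 1 library left out. The number called higher was 0 to 3 with 1 library left out, the 3 (Erg, Sox17, Sox18) without Ctrl replicate 1, the Ctrl library with the highest marker mean. Relative to the endothelial markers, the number called lower went from 0 to 1 (Klf2) with a pseudocount of 0.1, without the trend, with the median of the markers and with markers that are no targets, and was 0 to 5 with 1 library left out. Fold changes that turned were those of Ets1 (-0.14 with quantile normalization, -0.11 to 0.26 with 1 library left out, negative without Ctrl replicate 2 and without NICeCA replicate 3) and Sox4 (-0.056 to 0.19 with 1 library left out, negative without Ctrl replicate 3 and without NICeCA replicate 3). With the marker mean as a covariate, Erg (-0.22), Fli1 (-0.041), Ets1 (-0.29), Sox7 (-0.30), Sox18 (-0.43), Tal1 (-0.23), Sox13 (-0.12) and Sox4 (-0.053) turned negative, Klf2 was -1.07 (limma adjusted p = 0.13) and 0 of all genes were called. Relative to the markers, Sox17 turned to -0.030 with the median of the markers and was -0.029 to 0.22 with 1 library left out, negative without Ctrl replicate 3 and without NICeCA replicate 1. Sox18 was -0.28 to 0.011, positive without Ctrl replicate 1. The causes were not tested. The methods speak of pairs of mice, and the sources used here do not say which libraries belong together. Same-numbered libraries did not deviate together (r of 0.12, -0.34 and -0.18), so the replicate numbers were not taken as pairs, though 3 correlations do not show that no pairing exists. With the block, the adjusted p of Klf2 was 0.056 (limma), and calls over all genes went from 1671 to 536. Over all genes the number of calls also differed by more than 1.5 times with quantile normalization (771), no filter (365), the length trend removed (796), and without Ctrl replicate 1 (1035), Ctrl replicate 2 (379), NICeCA replicate 1 (105) or NICeCA replicate 2 (27). Of the 17 calls among named genes (Klf2 included), 17 were lost with the marker mean as a covariate, 13 with no filter, 10 with the block, 9 with quantile normalization, 6 with the length trend removed, 4 with trimmed mean scaling and 1 with voom, and none turned direction. Each member rested on at least 165 reads in every library.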
